A study of Mus musculus with 3 samples.

Results

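The complement genes C1qa, C1qb, C1qc, C3, C4b, Cfb, Cfp, C6 and C3ar1, 9 of the 32285 genes counted, were followed through the immune cells of mouse mammary tumors. They were taken by their symbols, for their roles in the complement system, with earlier results of these data known. Single-cell RNA sequencing had been run on live CD45+ cells (leukocytes) sorted from primary tumors of 4T1-luc cells, a luciferase-expressing mammary carcinoma line grown in female Balb/c mice aged 6 to 8 weeks. The 3 libraries, 1 per condition and each from the pooled tumors of 3 mice, came from day 14 after implantation. In the vehicle library the tumor cells were wildtype for p38α and the mice received DPBS for 10 days from day 4. In the p38i library the same tumor cells were implanted and the mice received the p38 inhibitor LY2228820 (ralimetinib) at 30 mg/kg daily over the same days. In the p38KO library the tumor cells were 1 clone, H9, in which Mapk14, the gene of p38α, had been inactivated, and no treatment was given. The host cells that were sorted kept Mapk14 in all libraries, so its level (33.7, 42.1 and 39.1 counts per 1000000 counts, CPM, in vehicle, p38i and p38KO) does not check the labels.

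Complement is a set of plasma and cell surface proteins that tag particles and cells for uptake and recruit leukocytes. The classical route starts when C1q, a protein built from the A, B and C chains encoded by C1qa, C1qb and C1qc, binds antibody complexes or dying cells, and goes on through C4 to the cleavage of C3. The alternative route amplifies C3 cleavage with factor B (Cfb) and is stabilised by properdin (Cfp), while C6 is part of the late membrane attack complex and C3ar1 is the receptor of the C3a fragment. Most plasma complement is made in the liver, whereas C1q and properdin come largely from myeloid cells, and tumor-associated macrophages are a known source of C1q.

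The genes lie apart in the genome except for the C1q cluster. On GRCm38, C1qb (chr4:136880129-136886187), C1qc (chr4:136889804-136893065) and C1qa (chr4:136895917-136898803) sit side by side on the minus strand within 18675 bases. C4b (chr17:34728380-34743882) and Cfb (chr17:34856374-34862518) are in the major histocompatibility region, and C3 is on the same chromosome (chr17:57203970-57228136). C6 (chr15:4727175-4814967), Cfp (chrX:20925454-20931555) and C3ar1 (chr6:122847138-122856161) stand alone. C4b has a near-identical neighbour, C4a, so reads of both could be split or lost in counting and the C4b level is uncertain. C4a itself had 7 UMIs over all kept cells.

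RefSeq promoter sequences (GRCm38.p6) were at hand for 6 of the 9 genes, C1qb, C1qc, C3, C3ar1, C6 and Cfp. The bases before the RefSeq start, as far as they lie outside any annotated gene, are shown for C1qb, C1qc, C3 and C6. Transcripts of C1qb and C1qc kept close proportions to each other in the myeloid gates. C3 was spread over the myeloid gates, whereas C6, like C1q, lay mostly in the macrophage gate. Capitals mark matches, on either strand, to GTCAGC (a MAF type), GAGGAA (an ETS type), TTGCNNAA (a C/EBP type) or GAAANNGAA (an interferon response type), and no matches overlap.
C1qb (chr4:136886201-136886450, minus strand): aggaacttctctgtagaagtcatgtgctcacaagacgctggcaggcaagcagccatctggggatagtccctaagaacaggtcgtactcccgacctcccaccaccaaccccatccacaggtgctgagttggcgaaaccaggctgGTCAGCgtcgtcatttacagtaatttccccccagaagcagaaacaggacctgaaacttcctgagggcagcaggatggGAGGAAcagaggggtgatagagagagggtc
C1qc (chr4:136893066-136893164, minus strand): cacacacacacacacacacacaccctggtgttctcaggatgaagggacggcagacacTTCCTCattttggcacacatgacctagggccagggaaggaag
C3 (chr17:57228137-57228386, minus strand): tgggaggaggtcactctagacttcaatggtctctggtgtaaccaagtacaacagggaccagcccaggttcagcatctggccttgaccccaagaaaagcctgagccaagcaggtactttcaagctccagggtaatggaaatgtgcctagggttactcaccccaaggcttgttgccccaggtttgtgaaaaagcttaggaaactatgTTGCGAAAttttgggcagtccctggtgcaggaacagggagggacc
C6 (chr15:4726960-4727174, plus strand): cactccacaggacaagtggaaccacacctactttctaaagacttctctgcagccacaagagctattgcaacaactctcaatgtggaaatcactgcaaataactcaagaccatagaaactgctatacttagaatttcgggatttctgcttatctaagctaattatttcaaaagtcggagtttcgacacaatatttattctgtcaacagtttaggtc
The C1qb window held GTCAGC 107 bases and GAGGAA 30 bases before the start, letters that 12.9% and 23.3% of all 32851 promoter entries hold in the same 250 bases. The C1qc window, 99 bases long, stops at the annotated gene, short of the RefSeq start. It held GAGGAA on the opposite strand 193 bases before that start, as 9.91% of entries do in the same stretch. The C6 window, 215 bases long, likewise stops short of the start. The C3 window held TTGCNNAA, present in 9.56% of entries, and the windows of C6, Cfp and C3ar1 held none of these letters. GAAANNGAA was in no window and is in 7.13% of entries.

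Cells were sorted into gates by raw counts of genes outside the complement system. The macrophage gate (Adgre1 or Ms4a7) held 273, 349 and 627 cells in vehicle, p38i and p38KO, which was 7.15%, 7.28% and 16.2% of kept cells. The monocyte gate (Ly6c2 and Fn1) held 318, 549 and 276 cells, the neutrophil gate (Csf3r and Cxcr2) 1989, 2355 and 1695, the dendritic cell (DC) gate (Flt3) 35, 65 and 58, and the T cell gate (Cd3e), used as background, 500, 598 and 476. Between 705 and 877 cells per library met no gate. Marker lists set macrophages apart from neutrophils: the 9 macrophage markers summed to 13631 to 23992 CPM in the macrophage gate against 511 to 730 in the neutrophil gate, and the 8 neutrophil markers to 137901 to 205239 CPM in the neutrophil gate against 722 to 1802 in the macrophage gate. The lists include the gate genes, so part of this separation follows from the gating rule. Outside the gate genes, Apoe had 9619 to 19679 CPM in the macrophage gate against 172 to 381 in the neutrophil gate. S100a9 had 80174 to 115305 CPM in the neutrophil gate against 354 to 764 in the macrophage gate. The macrophage and monocyte gates were less well separated. Macrophage markers summed to 5192 to 5242 CPM in the monocyte gate. Monocyte markers summed to 2082 to 3315 CPM in the macrophage gate against 5552 to 6323 in the monocyte gate. The monocyte gate also held 4228 to 12378 CPM of neutrophil markers, 44.0 to 252 CPM of natural killer cell markers and, in p38KO, 198 CPM of epithelial markers against 42.4 and 57.9 CPM in vehicle and p38i. The neutrophil gate of p38KO also held more epithelial markers, 146 CPM against 12.3 and 8.02, and more mast cell or basophil markers, 67.0 CPM against 7.24 and 10.7. Between 5 and 9 cell barcodes were shared by each pair of libraries. The libraries held 20795195, 24210342 and 24374173 UMIs in kept cells, and the median mitochondrial share was 0.671%, 0.968% and 2.10%.

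With 1 library per condition there was no replicate and no test. Levels are CPM of the counts summed over a gate, intervals are 95% intervals of counting error only, and a difference between mice, days or library preparations cannot be told apart from a difference between conditions. In p38KO, the use of 1 clone and the absence of DPBS treatment also cannot be told apart from the loss of Mapk14. Tumor size likewise cannot be told apart from condition in p38KO or p38i, since the paper reports reduced tumor growth with each. A gene was called higher or lower where it had at least 20 counts over both libraries, its log2 ratio to vehicle was at least 0.5 either way and the interval left out 0. Both comparisons share the vehicle library. The members are compared between gates and libraries but not with each other in level, since counts per gene also depend on its sequence.

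**Figure D1:**
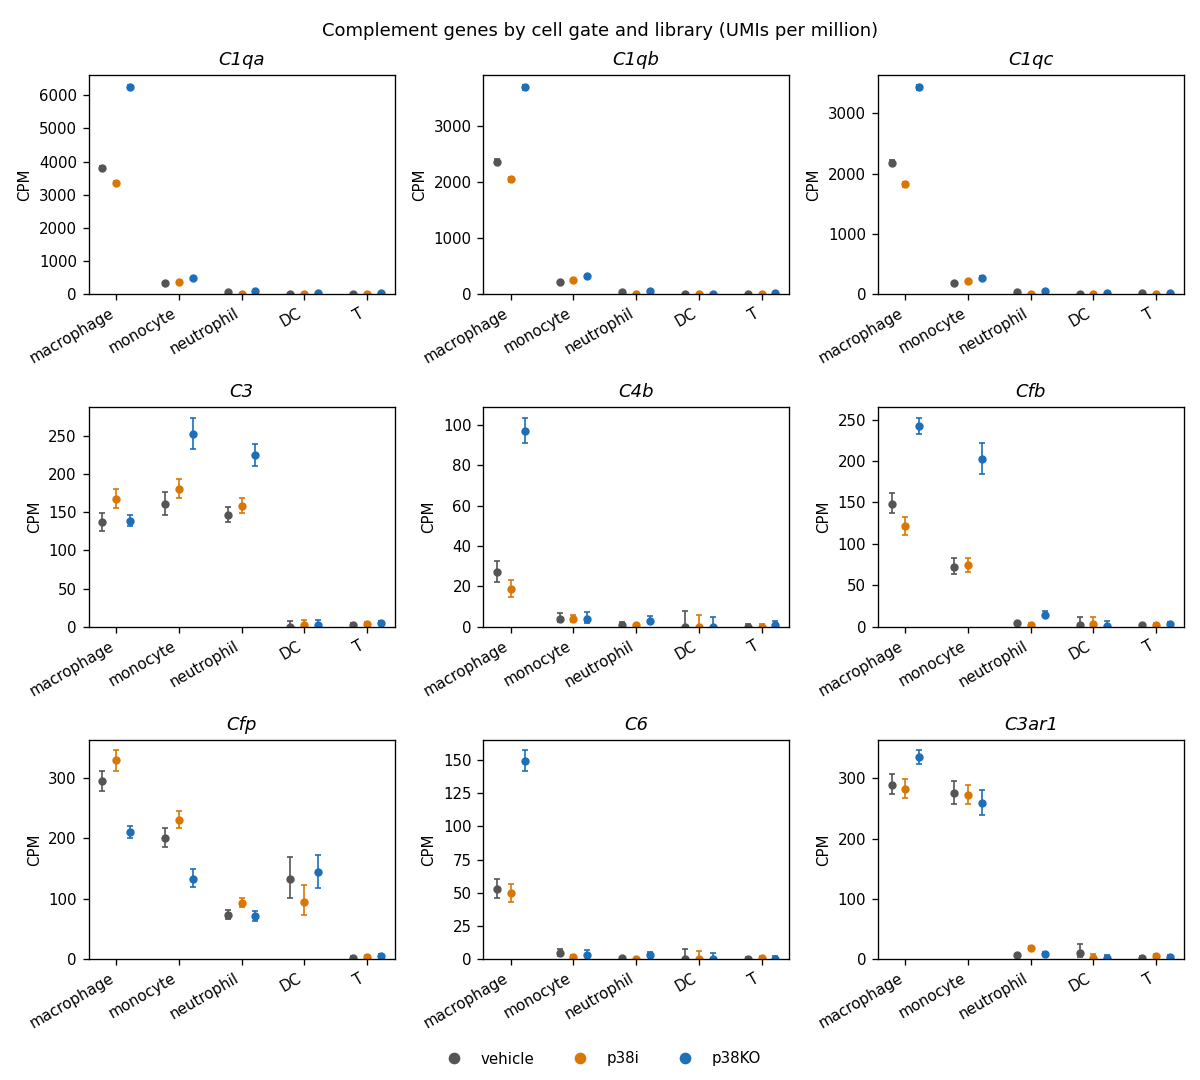
Level of each complement gene (CPM of summed UMIs, linear axis from 0, each panel with its own scale) in 5 cell gates and 3 libraries. Points are single libraries and bars are exact Poisson 95% intervals. C1qa, C1qb, C1qc, C4b and C6 are highest in the macrophage gate of p38KO, at 6251, 3678, 3430, 97.2 and 150 CPM, whereas C3 is spread over all 3 myeloid gates.

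The C1q chains marked the macrophage gate and were higher there in p38KO. C1qa stood at 3800 CPM in vehicle, 3368 in p38i and 6251 in p38KO. C1qb stood at 2357, 2045 and 3678 CPM and C1qc at 2185, 1822 and 3430 CPM. All chains therefore had the same order, with p38KO above vehicle and p38i slightly below it. The log2 ratio of p38KO to vehicle was 0.72 (0.69 to 0.74) for C1qa, 0.64 (0.61 to 0.67) for C1qb and 0.65 (0.62 to 0.68) for C1qc. That of p38i was -0.17, -0.20 and -0.26, short of the size limit. The joint p38KO ratio of the chains, 0.68, was 1.16 as a mean over cells. It was under the size limit where the gate was drawn otherwise, at 0.34 in cells with both Adgre1 and Ms4a7, 0.44 in a strict gate (at least 2 UMIs of its own genes and none of any other gate's) and 0.49 where gates were set at equal depth, with each cell thinned to 1500 UMIs.

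The macrophage gate held most C1q transcripts of each library. It took 80.2% of the C1q UMIs of all kept cells in vehicle, 78.8% in p38i and 90.9% in p38KO. Cells that met no gate held 12.2%, 11.3% and 6.46%, and monocytes 5.16%, 9.13% and 1.77%. Over all kept cells, C1q transcripts made up 2049, 1677 and 5825 CPM, a log2 ratio of 1.51 (1.49 to 1.52) for p38KO and -0.29 (-0.31 to -0.27) for p38i. The p38KO library thus had a larger share of macrophage-gate cells and a higher C1q level within that gate. The gate genes also stood higher within the p38KO gate. Ms4a7 had 258, 252 and 551 CPM and Adgre1 125, 112 and 194 CPM in vehicle, p38i and p38KO. Cells with both made up 32.6%, 32.1% and 63.3% of the gate. How far this bears on the share and the level was not tested. Cells of the gate with under 1000 CPM of C1q numbered 161 of 273 in vehicle, 213 of 349 in p38i and 144 of 627 in p38KO. They carried more monocyte markers, as given below, so the level within the gate is that of a mix of cells. Outside the gate C1q also stood higher in p38KO, at 876 CPM against 506 in vehicle. How much each of these added to the total was not tested.

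**Figure D2:**
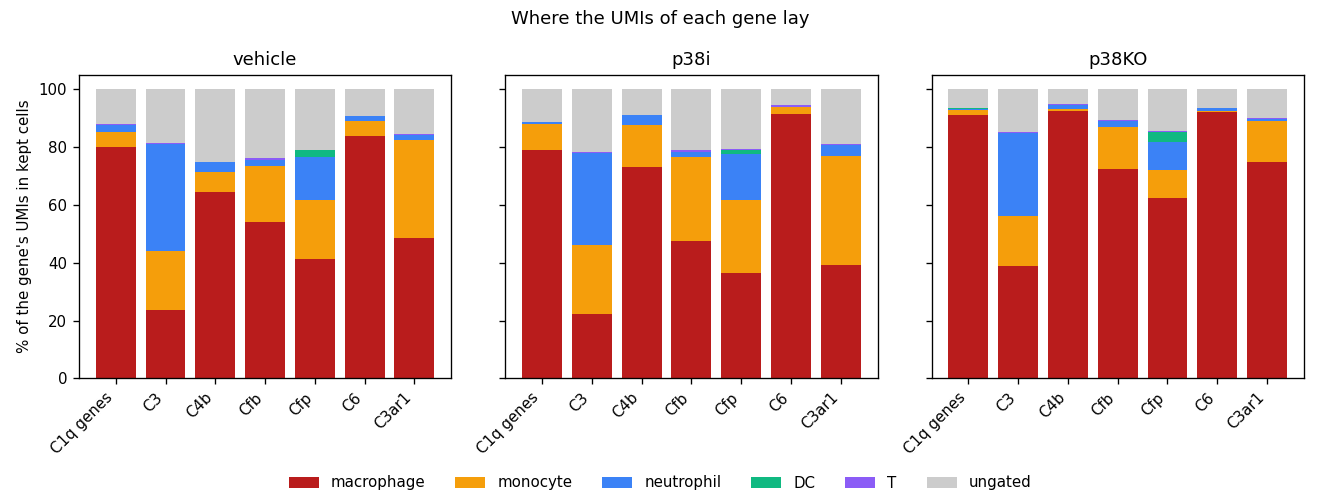
Share (%) of each gene's UMIs in kept cells that lay in each gate, in the 3 libraries, with the C1q genes summed. C6, C4b and the C1q genes lay mostly in the macrophage gate, C6 with 83.8% to 92.0%, whereas the macrophage gate held 23.8%, 22.2% and 39.0% of the C3 UMIs.

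Within the macrophage gate most cells had either no C1q UMI or a high C1q level. In vehicle 122 of 273 cells had no C1q UMI, in p38i 166 of 349 and in p38KO 75 of 627. At the other end, cells with at least 10000 CPM of C1q numbered 84 in vehicle (30.8%, exact 95% interval 25.3 to 36.6), 95 in p38i (27.2%, 22.6 to 32.2) and 405 in p38KO (64.6%, 60.7 to 68.3). These C1q-high cells are a range set after the values were seen and not a cell type, and 88, 120 and 338 cells lay between 5000 and 20000 CPM, around the limit. Even so, only 28, 41 and 78 cells fell between 1000 and 10000 CPM, while 39, 47 and 69 had C1q UMIs but under 1000 CPM. The C1q-high cells carried 90.8%, 83.9% and 93.2% of the gate's C1q UMIs.

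**Figure D3:**
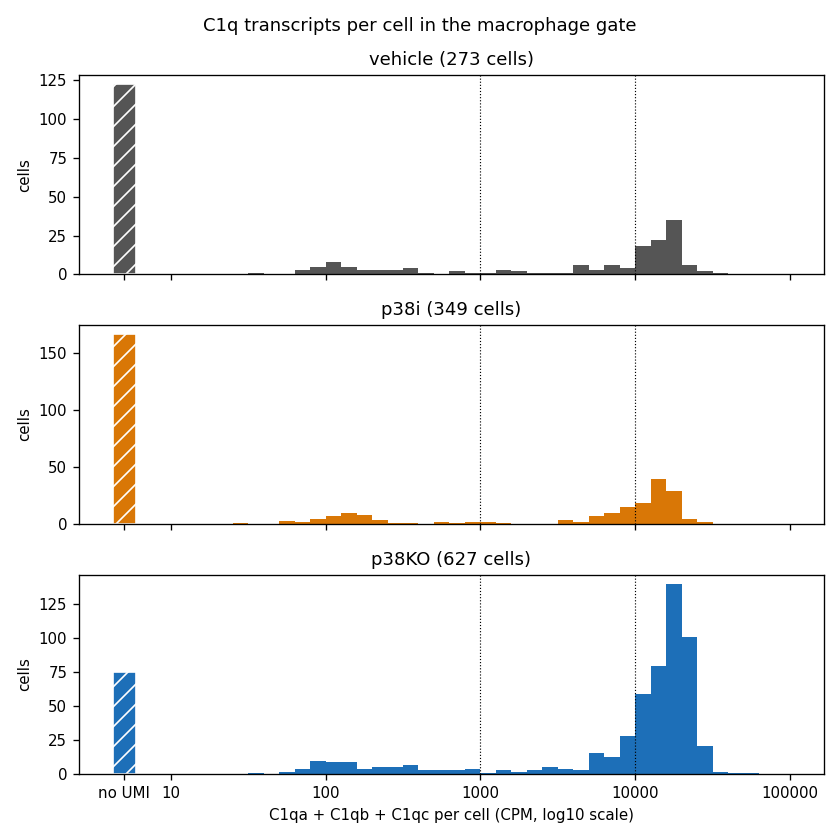
Number of macrophage-gate cells by their C1q level (C1qa, C1qb and C1qc together, CPM per cell on a log10 axis), with hatched bars for cells without a C1q UMI and dotted lines at 1000 and 10000 CPM. The peak above 10000 CPM holds 84 of 273 cells in vehicle, 95 of 349 in p38i and 405 of 627 in p38KO.

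The C1q level within C1q-high cells, 15377 CPM in vehicle, 14993 in p38i and 17060 in p38KO, is largely set by the limit that chose them and is given as a description. These cells carried the macrophage markers at a median of 16572, 22931 and 31342 CPM per cell in the 3 libraries and the monocyte markers at 623, 1336 and 834 CPM. Cells of the gate under 1000 CPM of C1q carried the monocyte markers at 6598, 5384 and 6358 CPM, above the level in C1q-high cells of each library. Neutrophil markers had a median of 161 to 273 CPM in C1q-high cells, and the other lists a median of 0.

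The chains kept close proportions. In the macrophage gate there were 0.62, 0.61 and 0.59 UMIs of C1qb, and 0.58, 0.54 and 0.55 of C1qc, for each UMI of C1qa in vehicle, p38i and p38KO. In the monocyte gate C1qb ran from 0.65 to 0.68 and C1qc from 0.56 to 0.59, and in the neutrophil gate C1qb ran from 0.52 to 0.64 and C1qc from 0.51 to 0.61. The T cell gate, which should lack C1q, gave 0.41 to 0.69 for C1qb and 0.47 to 0.71 for C1qc on 64 to 260 C1q UMIs.

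Outside the macrophage gate, C1q levels were lower. The chains together stood at 733, 841 and 1075 CPM in monocytes and at 1248, 886 and 1983 CPM in cells that met no gate. The macrophage gate had 8342, 7236 and 13359 CPM. At their own depth, 80 of 318, 94 of 549 and 138 of 276 monocyte-gate cells had a C1q UMI. In the monocyte gate C1qa stood at 327, 374 and 478 CPM in vehicle, p38i and p38KO, and all chains were called higher in p38KO (log2 ratio 0.55 for C1qa, 0.53 for C1qb and 0.59 for C1qc). The 10 richest cells held 89.9%, 66.1% and 67.2% of the gate's C1q UMIs. Without them the joint ratio was 1.91 (1.71 to 2.13) for p38i and 2.26 (2.05 to 2.48) for p38KO. Leaving them out took a larger share of the UMIs from vehicle, so these ratios are not comparable with those of the whole gate. After scaling to the median gene the joint p38KO ratio of the whole monocyte gate was 0.48, under the limit. In the neutrophil gate C1qa stood at 72.2, 16.0 and 97.2 CPM, and p38i was called lower for every chain, with log2 ratios of -2.17 (C1qa), -2.11 (C1qb) and -1.91 (C1qc). C1qc alone was called higher in p38KO neutrophils, at 0.62 (0.35 to 0.89), or 0.49 after the same scaling, 0.61 without cells with epithelial transcripts and 1.27 without cells with lymphocyte or mast cell transcripts.

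T cells carried C1q transcripts in the same order. At 1500 UMIs per cell, 8.00%, 3.68% and 14.9% of T gate cells had a C1q UMI in vehicle, p38i and p38KO, against 10.5% (9.19 to 11.9), 5.48% (4.59 to 6.47) and 24.1% (22.1 to 26.2) of neutrophil gate cells. At their own depths, a median of 3874 to 5059 UMIs in T cells and 2157 to 2475 in neutrophils, the shares were 16.2%, 8.36% and 35.5% of T cells and 15.9%, 8.28% and 34.3% of neutrophils. The summed C1q level followed the same order, at 45.2, 22.6 and 101 CPM in T cells and 153, 36.1 and 204 CPM in neutrophils. In the vehicle neutrophil gate 10 cells held 55.5% of the C1q UMIs, against 20.2% in p38i and 12.1% in p38KO. Without the 10 richest cells of each library the joint ratio was -1.25 in p38i and 1.40 in p38KO in place of -2.09 and 0.41. The part of free RNA in these values was not tested.

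C4b and C6 had the largest log2 ratios of the members in the macrophage gate of p38KO. C6 stood at 53.0 CPM in vehicle (217 UMIs), 49.7 in p38i (220 UMIs) and 150 in p38KO (1446 UMIs), with log2 ratios of -0.09 (-0.37 to 0.19) for p38i and 1.50 (1.29 to 1.71) for p38KO. C4b, whose product joins the classical C3 convertase, stood at 27.1, 18.5 and 97.2 CPM on 111, 82 and 939 UMIs. Its log2 ratio was 1.84 (1.56 to 2.14) in p38KO and -0.55 (-0.98 to -0.12) in p38i, so it was called higher in p38KO and lower in p38i. The p38KO calls of both genes held under every alternative tried, with ratios from 1.02 to 2.17 for C6 and from 1.24 to 3.68 for C4b. The lower C4b of p38i did not hold, since it was 0.30 in the strict gate. The 10 richest cells held 62.2%, 72.0% and 17.5% of the macrophage gate's C4b UMIs in vehicle, p38i and p38KO. For C6 these shares were 46.1%, 36.4% and 10.2%.

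Both genes lay mostly in C1q-high cells within the macrophage gate. In those cells C6 stood at 97.7, 113 and 199 CPM in vehicle, p38i and p38KO, against 0.659 CPM, no UMI and 3.06 CPM in cells under 1000 CPM of C1q. C4b stood at 47.6, 36.8 and 124 CPM in C1q-high cells and at 1.32, 7.32 and 6.87 CPM in the low ones. Cells between these ranges had C6 at 33.9, 23.6 and 29.9 CPM and C4b at 23.2, 2.78 and 45.3 CPM. The p38KO excess was thus present within C1q-high cells, with a log2 ratio of 1.03 (0.81 to 1.25) for C6 and 1.38 (1.07 to 1.70) for C4b. It also showed in the number of cells: after thinning to 10000 UMIs, C6 was seen in 32 of 72 C1q-high cells of vehicle (44.4%), 42 of 81 of p38i (51.9%) and 207 of 290 of p38KO (71.4%, 65.8 to 76.5). C4b was seen in 25.0%, 16.0% and 40.3% of these cells, and both genes together in 13.9%, 11.1% and 33.8%. Thinning left out 12, 14 and 115 shallower cells, and at their own depth C6 was seen in 54.8%, 57.9% and 77.3% and C4b in 27 of 84, 19 of 95 and 188 of 405 cells. The monocyte and neutrophil gates held at most 16 UMIs of C4b or 14 of C6 in any library. Cells that met no gate held 43, 10 and 53 UMIs of C4b (10.3, 1.94 and 11.5 CPM) and 24, 13 and 103 of C6 (5.77, 2.52 and 22.3 CPM) in vehicle, p38i and p38KO. C6 was called lower in p38i monocytes, a log2 ratio of -1.78 that rests on 14 and 6 UMIs and was 0.12 where gates were set at equal depth.

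**Figure D4:**
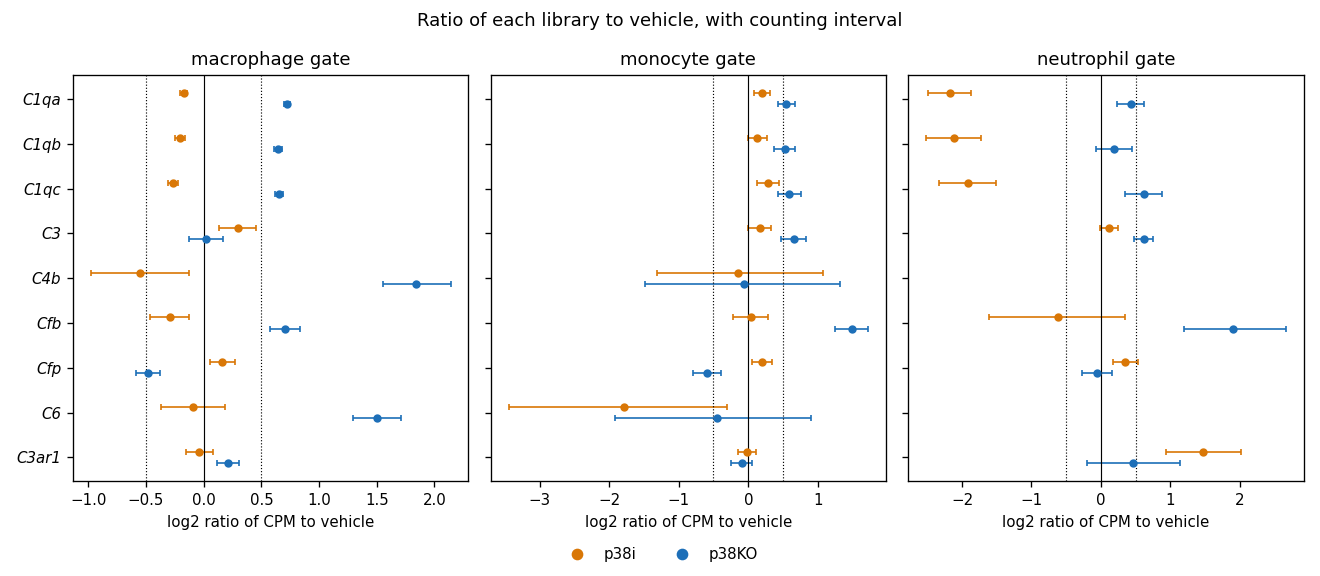
Log2 ratio of p38i and of p38KO to the shared vehicle library for each member in 3 gates, with 95% intervals of counting error. The solid line is no difference and dotted lines mark 0.5 either way. Members with fewer than 20 counts are not drawn (C4b and C6 in neutrophils). In the macrophage gate p38KO has C4b at 1.84 and C6 at 1.50, and in the neutrophil gate p38i has the C1q chains near -2.

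Factor B was higher in p38KO in each myeloid gate. Cfb, the protease that forms the alternative C3 convertase, stood at 148, 121 and 242 CPM in the macrophage gate of vehicle, p38i and p38KO. In the monocyte gate it stood at 72.4, 74.2 and 203 CPM, and in the neutrophil gate at 3.87, 2.52 and 14.5 CPM on 23, 17 and 64 UMIs. The log2 ratio of p38KO was 0.71 (0.58 to 0.84), 1.48 (1.25 to 1.72) and 1.91 (1.20 to 2.66) in the 3 gates, and the gene was called in each. For p38i it was -0.29, 0.04 and -0.62, with no call. The macrophage difference fell under the size limit in cells with both Adgre1 and Ms4a7 (0.26) and with gates at equal depth (0.35), and was 0.52 (0.36 to 0.68) in C1q-high cells. The monocyte gate of p38KO also held more epithelial transcripts (Epcam 57.3 CPM against 2.67 and 1.36), and without the cells that carry them the monocyte ratio of Cfb was 1.62. Of the 64 neutrophil UMIs in p38KO, 46 lay in 10 cells. In that gate Krt14 stood at 117 CPM against 0 and 0.148 in vehicle and p38i, and Cpa3 at 49.3 against 0.168 and 0.445. The neutrophil ratio of Cfb was 1.57 without cells with epithelial transcripts and 2.64 without cells with lymphocyte or mast cell transcripts.

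C3 behaved differently from the classical pathway genes. It was the one member at a similar level in all 3 myeloid gates of vehicle, with 137 CPM in macrophages, 161 in monocytes and 147 in neutrophils, against 2.23 CPM in T cells. In macrophages p38i stood at 168 and p38KO at 139 CPM, log2 ratios of 0.29 (0.13 to 0.45) and 0.02 (-0.12 to 0.16), which in the strict gate were 0.84 and 1.29. In monocytes C3 was called higher in p38KO, at 253 CPM and a log2 ratio of 0.65 (0.47 to 0.83), and in neutrophils also, at 225 CPM and 0.62 (0.48 to 0.75). The p38i values in those gates, 181 and 159 CPM, gave 0.17 and 0.11. The monocyte ratio of p38KO was 0.48 with gates at equal depth. After scaling to the median gene, which in p38KO neutrophils lay at 0.13, the neutrophil ratio was 0.49 and under the limit. It was 0.65 without cells with epithelial transcripts and 0.66 without cells with lymphocyte or mast cell transcripts. C3 was seen in 16.8% (15.2 to 18.5), 20.2% (18.6 to 21.8) and 24.1% (22.1 to 26.2) of neutrophils thinned to 1500 UMIs in vehicle, p38i and p38KO. In the macrophage gate C3 stood at 171, 236 and 265 CPM in the cells under 1000 CPM of C1q. It was lower in C1q-high cells, at 112, 122 and 122 CPM. Cells between these ranges had 139, 103 and 103 CPM of C3, so the fall was not steady in p38i and p38KO.

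Properdin was the member with lower values in p38KO. Cfp stood at 294, 329 and 210 CPM in the macrophage gate of vehicle, p38i and p38KO, and at 201, 231 and 133 CPM in the monocyte gate. The log2 ratio of p38KO was -0.48 (-0.59 to -0.38) in macrophages, just short of the size limit, and -0.59 (-0.79 to -0.39) in monocytes, where it was called lower, though it was -0.21 with gates at equal depth and -0.40 as a mean over cells. For p38i it was 0.16 and 0.20. Neutrophils had 73.4, 93.7 and 70.9 CPM and showed no call. In C1q-high cells the p38KO value was 198 CPM against 312 in vehicle and 352 in p38i, a log2 ratio of -0.66 (-0.80 to -0.52), whereas in cells under 1000 CPM of C1q it was 0.01 (-0.20 to 0.22). After thinning, Cfp was seen in 72.8% (67.2 to 77.8) of C1q-high cells of p38KO, against 86.1% (75.9 to 93.1) in vehicle and 91.4% (83.0 to 96.5) in p38i. In the DC gate Cfp stood at 132, 94.9 and 144 CPM.

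C3ar1 differed little between the libraries in macrophages and monocytes. It stood at 290, 282 and 335 CPM in the macrophage gate and at 276, 273 and 259 CPM in the monocyte gate, with log2 ratios between -0.10 and 0.21 and no call. In C1q-high cells it reached 340 CPM in p38KO against 240 in vehicle, a ratio of 0.50 (0.36 to 0.64). Neutrophils had few C3ar1 UMIs, 39 in vehicle, 122 in p38i and 40 in p38KO, and the p38i value was called higher with a log2 ratio of 1.46 (0.93 to 2.02). In p38i, 59 of the 122 UMIs lay in 10 cells, and the ratio was 0.29 in the strict gate.

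**Figure D5:**
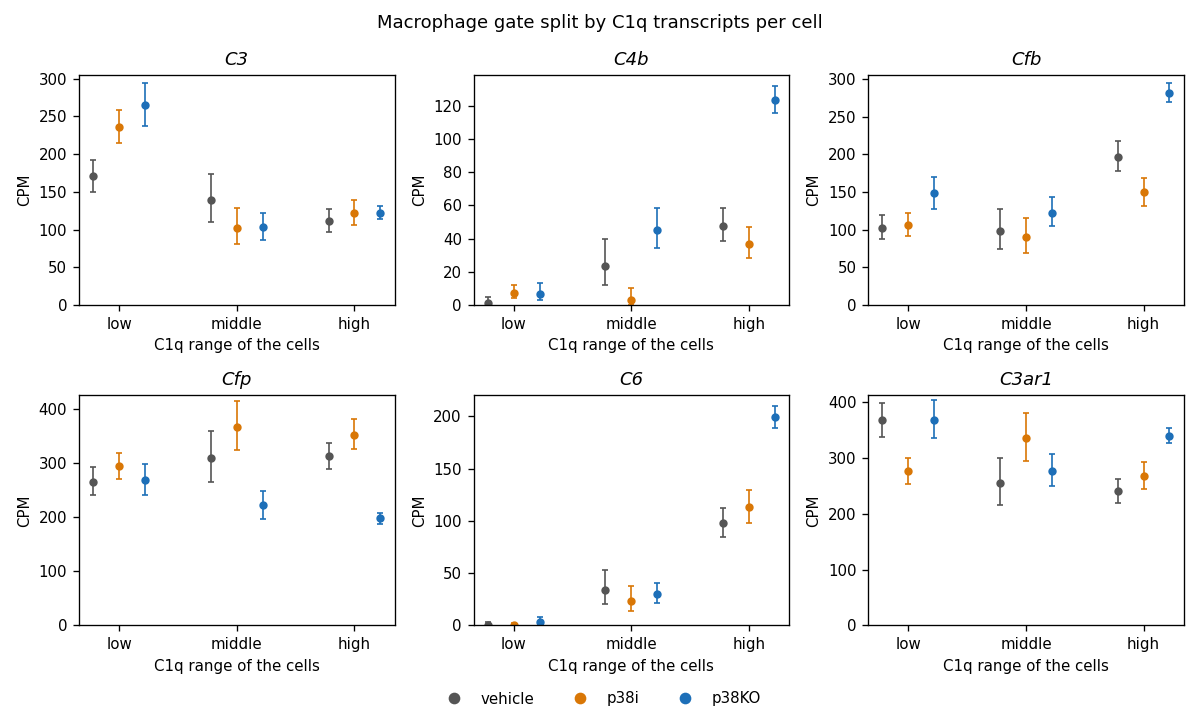
Level (CPM, linear axis from 0) of the members other than C1q in macrophage-gate cells with low (under 1000 CPM), middle and high (at least 10000 CPM) C1q, in the 3 libraries, with exact Poisson 95% intervals. C4b and C6 are highest in the high range of p38KO, at 124 and 199 CPM. C3 is lower in the high than in the low range of every library. Cfp of p38KO is lower only in the middle and high ranges, at 222 and 198 CPM.

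Read as a set, the members had more calls in p38KO than in p38i in macrophages and monocytes. In the macrophage gate 6 of 9 were called higher in p38KO (C1qa, C1qb, C1qc, C4b, Cfb and C6). Beside them, 16.5% of all genes tested were called in either direction, and 1257 of 11091 were called higher. In p38i 1 of 9 was called lower, beside 7.00%. The median log2 ratio of the members was 0.65 in p38KO and -0.17 in p38i, beside medians of 0.08 and 0.01 over all genes. In the monocyte gate 5 of 9 were called higher and 1 lower in p38KO, beside 11.5%, and 1 of 9 lower in p38i, beside 8.48%. The member medians there were 0.53 and 0.13, beside 0.07 and 0.01 over all genes. In the neutrophil gate 7 of the 9 had enough counts, of which 3 were called higher in p38KO, beside 12.5%, and 1 higher and 3 lower in p38i, beside 10.3%. Their medians were 0.47 in p38KO and -0.62 in p38i, beside 0.13 and 0.09 over all genes. C6 had no UMI in p38i neutrophils and 4 in vehicle, too few for a ratio. The C1q chains count 3 times in these numbers although they share a locus. In p38KO macrophages the joint C1q ratio and that of Cfb fell under the size limit with gates at equal depth. After scaling to the median gene, 4 member calls of p38KO fell under it. These were C1qc and C3 in neutrophils and C1qa and C1qb in monocytes. Because the members were chosen with earlier results of these data known, these counts are a description only.

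Other genes of the pathway were called in both directions. Of 41 other complement genes listed, 15 had fewer than 20 UMIs over all kept cells, and 16 could be compared in the macrophage gate of p38KO, of which 2 were called higher and 4 lower, beside the 16.5% of all genes called there. The higher ones were Fcna, the ficolin A gene, a lectin pathway recognition molecule, at 16.1 CPM in vehicle and 29.0 in p38KO, and Clu, clusterin, an inhibitor of the membrane attack complex, with no UMI in vehicle and 30 in p38KO. The lower ones were receptors: C5ar1, the C5a receptor, had 292 CPM in vehicle and 185 in p38KO (log2 ratio -0.66), Itgam 419 and 268 CPM (-0.64), Itgb2 334 and 222 CPM (-0.59) and Cd93, a surface glycoprotein first described as a C1q receptor, 145 and 57.5 CPM (-1.34). Itgam and Itgb2 encode the chains of complement receptor type 3, which binds C3 fragments. The median ratio of these 16 genes was -0.08. In p38i macrophages 1 of 13 was called, beside 7.00%, namely Colec12, a scavenger receptor collectin, lower at -0.57.

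Of the receptors lower in p38KO macrophages, C5ar1 and Cd93 were also called lower in p38KO monocytes, whereas Itgam (-0.40) and Itgb2 (-0.06) were not called. There C5ar1 had 248 CPM against 364 in vehicle (-0.56) and Cd93 65.8 against 133 (-1.01), and Clu was called higher on 42 UMIs against 1, in the gate with epithelial transcripts. In p38i monocytes the calls were the surface inhibitors Cd55 (16 and 4 UMIs) and Cd59a (16 and 8 UMIs), both lower. In p38i neutrophils Fcnb, a ficolin gene, was called higher on 25 UMIs against 5, and in p38KO neutrophils Cd46, C1qbp and Itgax were called higher and Cd55 lower, on at most 145 UMIs each. Among these other genes the calls were 0 higher and 2 lower of 14 in p38i monocytes (8.48% of all genes called), 1 and 2 of 13 in p38KO monocytes (11.5%) and 3 and 1 of 12 in p38KO neutrophils (12.5%). Late components were barely seen, and C7 and C8b were listed at 0.

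The genes closest in pattern to each member were taken from 5471 genes over the 15 sums of 5 gates and 3 libraries, which share libraries and depth, so the correlations are descriptions. C1q was most like Ccl12, a monocyte chemokine (Pearson r 0.98), Glul, glutamine synthetase (0.97), and Apoe, apolipoprotein E (0.96). C6 and C4b had the same nearest genes, Vcam1, an adhesion molecule, Hpgds, a prostaglandin D synthase, and Ccl8, a chemokine, with r from 0.97 to 0.99 for C6 and from 0.95 to 0.97 for C4b. Cfb was nearest to Itgb5, Stab1 and Glul (0.98), C3 to Fcgr3, Dok3 and Slc11a1 (0.98), Cfp to Rtn4, Cd68 and Gnai2 (0.98), and C3ar1 to the chemokine genes Ccl2 and Cxcl14 and to Slc35f6 (0.98 to 0.99).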

How the data were processed

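The 3 libraries of sorted CD45+ cells were aligned and counted by the authors with Cell Ranger (6.0.0 in the file headers; the submitters' notes name build mm10). They deposited unnormalized counts of UMIs for every gene in every barcode. The study's cell filter was applied (1500 UMIs or more, 300 genes or more, no more than 20% mitochondrial). No doublets were removed and no doublet caller was run. Gates used raw counts: T cells had Cd3e and no neutrophil, macrophage or Flt3 UMI or Fn1. All others lacked Cd3e. Macrophages had more Adgre1 and Ms4a7 than Csf3r and Cxcr2 UMIs, and neutrophils more Csf3r and Cxcr2 than Ly6c2 and Fn1. Monocytes had at least 2 UMIs of Ly6c2 and Fn1 and more of these than of Csf3r and Cxcr2. Neutrophils and monocytes also had no Adgre1, Ms4a7 or Flt3 UMI. DC had at least 1 UMI of Flt3 and none of Csf3r, Cxcr2, Adgre1, Ms4a7 or Fn1. Counts were summed per gate and library and given as CPM with exact Poisson intervals, ratios with exact conditional binomial intervals and shares with Clopper-Pearson intervals. Shares of cells with a UMI used cells thinned to 1500 UMIs with seed 1. Python 3.11.15, numpy 2.4.6, scipy 1.17.1, pandas 2.3.3 and matplotlib 3.10.9 were used. The call was also run on simulated Poisson counts with known changes. These counts follow the model behind the intervals and hold no spread between cells, mice or libraries. The run therefore checks the arithmetic only and cannot show that a call would recur in another library. Gene positions are from GENCODE on GRCm38. Genes named beside the members are those of the pathway list that were called in a main gate or passed 100 CPM, and the 3 genes most alike by log2(CPM + 10) with a mean of at least 20 CPM. The members and lists were chosen with earlier results of these data known. The result of 1 pathway gene is not reported here. Alternatives were other gates, filters, scalings and limits.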

Additional observations from a re-analysis of the deposited data

Results flagged for a closer look

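The C1q chains C1qa and C1qc had opposite directions between gates for p38i against vehicle. The log2 ratio of C1qa was 0.19 in the monocyte gate, -0.17 in the macrophage gate and -2.17 in the neutrophil gate. That of C1qc was 0.28, -0.26 and -1.91 in the same gates. Each rests on 1 library per condition, and the difference between gates was not tested. The neutrophil values lie on 108 C1qa and 66 C1qc UMIs in p38i, and the monocyte ratio of C1qa was -0.25 without cells that carried lymphocyte or mast cell transcripts. In neutrophils the 10 richest cells held 55.5% of the C1q UMIs in vehicle and 20.2% in p38i. In monocytes they held 89.9% and 66.1%. The T cell gate, used as background, had 45.2 CPM of C1q in vehicle and 22.6 in p38i.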

How the results depend on the processing

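The joint log2 ratio of C1qa, C1qb and C1qc was -0.21 (p38i) and 0.68 (p38KO) in macrophages, 0.20 and 0.55 in monocytes and -2.09 and 0.41 in neutrophils. With strict gates it was -0.34 and 0.44 in macrophages, 0.58 and 1.06 in monocytes and -1.24 and 1.41 in neutrophils. With gates at 1500 UMIs it was -0.66 and 0.49 in macrophages, 0.27 and 1.29 in monocytes and -1.93 and 1.52 in neutrophils. With both macrophage genes it was -0.10 and 0.34, and in C1q-high cells, which were chosen by C1q itself, -0.036 and 0.15. It was 0.68 in p38KO neutrophils with no cell filter and 0.48 in p38KO monocytes with median-ratio scaling. The mean CPM per cell gave -0.16 and 1.16 in macrophages, 0.12 and 1.27 in monocytes and -1.41 and 1.07 in neutrophils. Alternatives chosen after the data were seen gave, without cells with epithelial transcripts, -0.30 in p38i macrophages and 0.11 in p38i monocytes. Without cells with lymphocyte or mast cell transcripts they gave -0.18 in p38i macrophages, -0.28 in p38i monocytes and 1.19 in p38KO neutrophils, and without the 10 leading cells 1.91 in p38i monocytes and 1.40 in p38KO neutrophils. Strict gates called 348 genes in p38i macrophages and 627 in p38KO macrophages in place of 714 and 1833. A size limit of 1 called 260 and 768 genes in macrophages, 374 and 459 in monocytes and 334 and 423 in neutrophils. C4b in p38i macrophages turned to 0.30 with strict gates, and C6 in p38i monocytes to 0.12 with gates at 1500 UMIs. There were 453 values of 53 single-gene ratios under 10 settings. Of these, 331 were called ratios that kept their call, or uncalled ratios that stayed within the counting interval. A further 46 gained a call, 26 lost one, 48 stayed uncalled but left the interval, and 2 called ratios changed sign, as given above. A change of sign was counted only for called ratios. Uncalled ratios that changed sign, such as that of C1qa in p38i monocytes, lie in the other counts. Ratios that kept their call were not checked against the interval. At their own depth in place of 1500 UMIs, 102 shares of cells moved and 63 did not. With at least 3000 UMIs per cell, 19 levels moved and 71 did not. The causes were not tested. No paired analysis was possible because each condition has 1 library. Low counts limit the precision of C4b and C6 in monocytes and neutrophils and of Cfb and C3ar1 in neutrophils.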
